A study of Mus musculus with 10 samples.

Results

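The genes described here are 10 members of the Myc network and the Pim kinase family. They are the paralogues Myc, Mycn and Mycl, their partner Max, the antagonists Mxd1, Mxd4, Mnt and Mxi1, and the kinase genes Pim1 and Pim2. They were chosen by symbol, and all 10 are among the 38086 gene IDs that the deposited count tables of both cell populations share. RNA was sequenced from 10 libraries of bone marrow cells of C57BL/6 mice at 12 months of age. All mice carried floxed Dnmt3a alleles, and the treatment given for all samples is 5 injections of poly(I:C), an interferon inducer that switches on the Mx1 promoter. KO mice carried the Mx1-Cre transgene, which deletes floxed Dnmt3a after that induction. CTRL mice had the same floxed alleles without Cre, so the presence of Cre and the loss of Dnmt3a cannot be told apart. The sorted populations were LSK (lineage-negative, Sca1+, cKit+; KO n = 3, CTRL n = 2), which hold the haematopoietic stem cells, and GMP (lineage-negative, Sca1-, cKit+, CD34+, FcgR+; KO n = 3, CTRL n = 2), the granulocyte-macrophage progenitors. Mx1-Cre also acts outside blood cells, so the bone marrow surroundings of KO cells can carry the deletion too. A library name joins the genotype with its title number.

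Myc proteins are transcription factors that bind DNA as dimers with Max, at the E-box CACGTG and related sites, and activate genes of ribosome production, metabolism and the cell cycle. Mxd1, Mxd4, Mnt and Mxi1 compete for Max and the same sites and recruit repressors, so the balance between them and Myc sets the output. The Pim kinases are serine/threonine kinases whose activity is set mainly by how much is transcribed and how fast the protein is degraded. STAT3 and STAT5 induce Pim1 downstream of cytokine receptors, and Pim1 cooperates with Myc in lymphoma. In the marrow, Mycn and Myc act together in stem cell maintenance, and Mxd1 rises as granulocytes mature.

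RefSeq promoter entries were matched for 9 of the 10 genes, 12 in all (build GRCm38.p6, 250 bases before each start). No Myc entry was used here. The E-box CACGTG, which reads the same on both strands, stood in 3 of these entries, against 6.02% of 32851 promoters of the same length. The STAT site TTCNNNGAA, also the same on both strands, was in none of the 12 and in 7.02% of all promoters. The sequences below run 5′ to 3′ and are cut to the bases outside annotated exons. The first 3 are shown because they hold the E-box, which is in capitals: Mxd4 at chr5:34187721-34187960 (minus strand, match 219 bases before the start), Mnt at chr11:74830674-74830919 (plus strand, 123 bases before) and the internal start of Pim1 at chr17:29492835-29493036 (plus strand, 58 bases before). The last is the upstream start of Pim1 at chr17:29490535-29490752 (plus strand), shown because Pim1 had the largest KO effect among the members in GMP and because DNA methylation by Dnmt3a falls on CG. Here capitals mark CG, which is also part of each CACGTG. Its 250 bases hold 36 CG, against a median of 6 over all promoters. This is not particular to Pim1: every entry of the members but the internal start of Pim1, with 4, lay above that median. The most CG were 42, at 1 start of Mxi1, and Mxd1 had 32. These matches are a description of the letters. Binding and methylation were not measured here.
Mxd4: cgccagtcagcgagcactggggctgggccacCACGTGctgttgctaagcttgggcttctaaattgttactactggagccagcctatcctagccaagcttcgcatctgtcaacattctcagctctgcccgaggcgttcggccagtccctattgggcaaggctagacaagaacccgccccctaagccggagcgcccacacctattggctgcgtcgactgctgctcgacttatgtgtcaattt
Mnt: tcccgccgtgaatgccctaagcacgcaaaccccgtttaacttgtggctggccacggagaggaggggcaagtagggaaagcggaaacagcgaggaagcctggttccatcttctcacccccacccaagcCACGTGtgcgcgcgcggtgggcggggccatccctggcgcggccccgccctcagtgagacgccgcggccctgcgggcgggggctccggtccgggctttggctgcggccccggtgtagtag
Pim1 internal start: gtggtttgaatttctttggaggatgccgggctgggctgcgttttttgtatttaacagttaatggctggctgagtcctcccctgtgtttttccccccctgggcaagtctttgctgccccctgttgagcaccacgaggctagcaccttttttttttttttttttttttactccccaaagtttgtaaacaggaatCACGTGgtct
Pim1 upstream start: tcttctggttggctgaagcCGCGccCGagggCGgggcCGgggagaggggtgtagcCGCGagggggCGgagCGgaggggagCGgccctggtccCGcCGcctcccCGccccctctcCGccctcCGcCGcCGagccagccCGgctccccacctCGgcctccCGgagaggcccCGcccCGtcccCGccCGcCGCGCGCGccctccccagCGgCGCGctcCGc

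Total gene counts were 29533371 to 30437981 reads in LSK and 93850256 to 122658636 in GMP. Levels are in CPM, read counts relative to library size, with library sizes scaled with TMM over all 10 libraries, and CPM per kb of merged exons where genes are compared. LSK and GMP were counted in separate tables on different gene sets and at different depths, so differences between the populations cannot be told apart from differences between the tables. Dnmt3a had 55.5, 51.2 and 57.1 CPM in LSK KO, against 151 and 145 CPM in LSK CTRL, and 51.7, 65.9 and 20.5 CPM in GMP KO, against 143 and 115 CPM in GMP CTRL. The KO effect on Dnmt3a was −1.43 ± 0.08 in LSK (log2, SE; edgeR adjusted p = 1.1e-04) and −1.50 ± 0.42 in GMP. In GMP it did not pass (edgeR adjusted p = 0.300). Counts over the whole gene do not show how many cells carry the deletion. All 10 LSK markers were called higher in LSK than in GMP in both genotypes, and 9 of 10 GMP and primary granule markers were called lower, the exception being Kit, which both gates select. Within GMP, KO-178 and KO-179 had 15.5% and 16.1% of reads outside annotated genes and KO-352 10.3%, against 8.5% in CTRL-346 and 14.2% in CTRL-350. By Xist and Y-linked reads all GMP libraries were male, as were LSK KO-1327 and CTRL-1326, while LSK KO-1333, KO-1334 and CTRL-1330 were female. The description of GMP KO-352 refers to LSK data, against its title, which was followed.

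Myc (ENSMUSG00000022346, chromosome 15, 61985391 to 61990374, GRCm38) was the most abundant paralogue in both populations and stood higher in GMP KO than in GMP CTRL. It had 244, 210.3 and 204 CPM in GMP KO-178, KO-179, KO-352, against 145 and 131 CPM in CTRL-346 and CTRL-350. All 3 KO libraries lay above both CTRL libraries. The means were 219.5 ± 21.8 CPM in GMP KO (SD, n = 3) and 138 ± 9.83 CPM in GMP CTRL (SD, n = 2), a log2 fold change of 0.66 ± 0.13 (SE). This did not pass after adjustment over all genes (edgeR adjusted p = 0.258). It passed in DESeq2 (0.64 ± 0.15, adjusted p = 0.0015) and narrowly in an edgeR fit of all 10 libraries (0.67 ± 0.13, adjusted p = 0.0499). In LSK the level was 191, 258 and 216 CPM in the KO libraries KO-1327, KO-1333, KO-1334, against 196 and 207 CPM in CTRL-1326 and CTRL-1330. There the groups overlapped and the log2 fold change was 0.14 ± 0.12 (SE; edgeR adjusted p = 0.9998). With TMM scaling over all 10 libraries, GMP KO overlapped both LSK groups, and GMP CTRL lay below all libraries of the other 3 groups. In bulk RNA a change in the mix of cells and a change of RNA per cell cannot be told apart.

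Mycn (ENSMUSG00000037169, chromosome 12, 12936093 to 12941914), the paralogue active in stem and embryonic cells, was a gene of LSK. It had 60.4, 61.8 and 64.6 CPM in LSK KO and 56.8 and 54.4 CPM in LSK CTRL. Every GMP library had far less, with 0.72, 0.74 and 0.18 CPM in GMP KO and 0.17 and 1.25 CPM in GMP CTRL. All LSK KO libraries lay above both LSK CTRL libraries, and the log2 fold change was 0.17 ± 0.08 (SE; edgeR adjusted p = 0.9998). The GMP values rest on 15 to 82 reads in KO and 14 to 103 reads in CTRL, and these groups overlapped.

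Mycl (ENSMUSG00000028654, chromosome 4, 122995652 to 123002485), which is known from dendritic cells, was low throughout and uneven between libraries of the same group. It had 1.66, 2.21 and 2.0 CPM in LSK KO and 2.10 and 6.01 CPM in LSK CTRL. In GMP it had 0.77, 3.51 and 0.78 CPM in GMP libraries KO-178, KO-179, KO-352, and 0.26 and 4.21 CPM in CTRL-346 and CTRL-350. Its KO effect in LSK, −1.06 ± 0.40 on the log2 scale (SE; edgeR adjusted p = 0.9998), became −0.08 without CTRL-1330. The 8 dendritic and MHC class II markers, none at 0 in any library, summed to 147, 361 and 104 CPM in the GMP KO libraries and to 41.6 and 306 CPM in the GMP CTRL libraries. Flt3, which is also an LSK marker, carried most of this sum in KO-178 and KO-352, and without it the sums were 45.9, 183 and 21.9 CPM in GMP KO, against 26.1 and 282 CPM in GMP CTRL. The GMP libraries high in Mycl, KO-179 and CTRL-350, were highest in both sums. They were also highest in the sum of the 10 erythroid and megakaryocyte markers. This sum was 131, 160 and 48.7 CPM in GMP KO, where 1 marker was at 0 in KO-352. In GMP CTRL it was 65.6 and 149 CPM, where 2 were at 0 in CTRL-346. Itga2b carried most of it in KO-179 (102 CPM) and CTRL-350 (113 CPM), against 63.1 CPM in KO-178. Car1 was highest in KO-178, with 52.9 CPM, against 43.6 CPM in KO-179 and 12.1 CPM in CTRL-350. In LSK, CTRL-1330 was highest in Mycl, in the dendritic markers (888 CPM) and in the erythroid and megakaryocyte markers (532 CPM). The part of such cells in the Mycl values was not tested.

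Per kb of exon, Myc made up 78.9% to 83.1% of the summed paralogues in LSK KO and 80.3% to 80.9% in LSK CTRL. Mycn made up 16.4% to 20.6% in LSK KO and 17.5% to 19.1% in LSK CTRL. In GMP the share of Myc was 98.6% to 99.7% in KO and 97.1% to 99.8% in CTRL. The summed paralogues came to 88.9 to 114 CPM per kb in LSK KO, 90.0 to 94.3 in LSK CTRL, 75.3 to 90.4 in GMP KO and 49.6 to 53.5 in GMP CTRL. The GMP CTRL libraries had the lowest sums of the 4 groups.

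Max (ENSMUSG00000059436, chromosome 12, 76937269 to 76962201), the dimer partner these factors share, did not pass in either KO comparison. It had 63.5, 64.1 and 64.1 CPM in LSK KO, against 67.7 and 61.4 CPM in LSK CTRL. In GMP it had 79.6, 70.8 and 90.6 CPM in KO, against 91.3 and 80.1 CPM in CTRL. KO and CTRL overlapped in both populations. Its KO effects were −0.01 ± 0.08 in LSK and −0.11 ± 0.14 in GMP (log2, SE), and the sign of each turned under other settings.

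**Figure D1:**
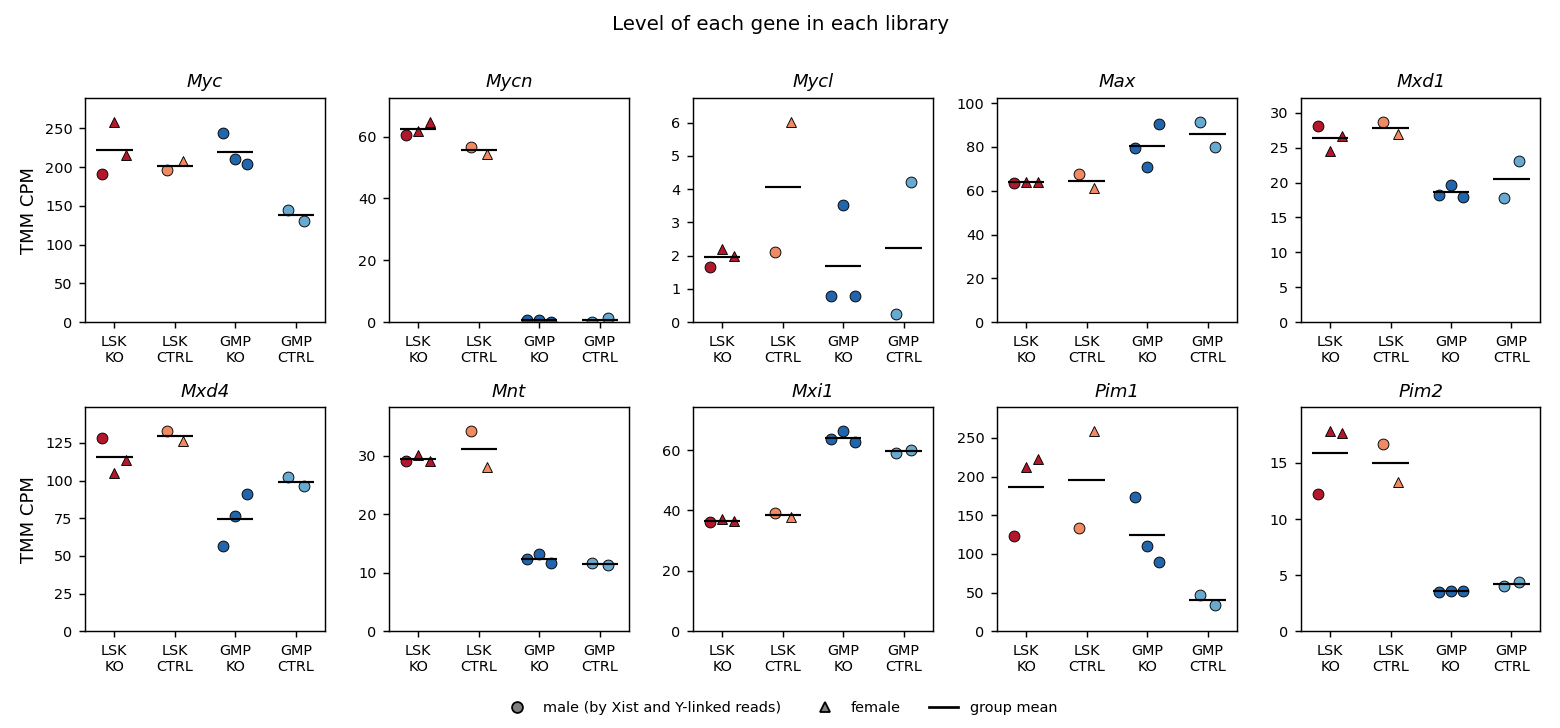
Level of each of the 10 genes in TMM CPM (vertical axes, from 0, own scale per gene) in LSK KO, LSK CTRL, GMP KO and GMP CTRL, with 1 point per library, circles for male and triangles for female libraries, and a bar at the group mean. Myc lies between 204 and 244 CPM in GMP KO and at 131 and 145 CPM in GMP CTRL. Pim1 lies between 89.5 and 174 CPM in GMP KO and at 33.6 and 46.8 CPM in GMP CTRL. In LSK the male libraries have the lowest Pim1.

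Of the antagonists, Mxd4 had the largest KO effect in GMP, and none passed the test. Mxd4 (ENSMUSG00000037235, chromosome 5, 34173883 to 34187720) had 56.7, 76.5 and 90.8 CPM in GMP KO-178, KO-179, KO-352, against 102 and 96.1 CPM in CTRL-346 and CTRL-350. All 3 KO libraries lay below both CTRL libraries, at −0.42 ± 0.19 on the log2 scale (SE; edgeR adjusted p = 0.385). The effect was −0.26 ± 0.15 without KO-178 and −0.58 ± 0.16 without KO-352. With KO-352 as the only KO library it was −0.13. KO-178 had the highest Myc and the lowest Mxd4 of the GMP libraries, and KO-179 the next in both. In LSK, Mxd4 had 128, 105 and 114 CPM in KO, against 133 and 126 CPM in CTRL, and the groups overlapped (log2 fold change −0.15 ± 0.09, SE). The other 3 antagonists differed less between genotypes.

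Mxi1 (ENSMUSG00000025025, chromosome 19, 53310518 to 53375810) had 63.7, 66.1 and 62.5 CPM in GMP KO, against 59.1 and 60.1 CPM in GMP CTRL, all KO above CTRL. In LSK it had 36.0, 37.3 and 36.5 CPM in KO, against 39.2 and 37.9 CPM in CTRL, all KO below CTRL. These are small steps, with log2 fold changes of 0.09 ± 0.09 in GMP and −0.07 ± 0.09 in LSK (SE), both no larger than their SE. Mxd1 (ENSMUSG00000001156, chromosome 6, 86647042 to 86669161) had 28.1, 24.5 and 26.6 CPM in LSK KO, against 28.7 and 26.9 CPM in LSK CTRL. In GMP it had 18.2, 19.6 and 18.0 CPM in KO, against 17.9 and 23.1 CPM in CTRL. Mnt (ENSMUSG00000000282, chromosome 11, 74830920 to 74845725) had 29.1, 30.1 and 29.1 CPM in LSK KO, against 34.1 and 28.0 CPM in LSK CTRL. In GMP it had 12.4, 13.3 and 11.6 CPM in KO, against 11.7 and 11.3 CPM in CTRL. For Mxd1 and Mnt the KO and CTRL libraries overlapped in both populations, and the largest of their 4 KO effects was −0.15 ± 0.15 (log2, SE) for Mxd1 in GMP.

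Pim1 (ENSMUSG00000024014, chromosome 17, 29490753 to 29496112), which promotes survival downstream of cytokine receptors, had the largest KO effect of the 10 genes in GMP. It had 174, 109.8 and 89.5 CPM in GMP KO-178, KO-179, KO-352, against 46.8 and 33.6 CPM in CTRL-346 and CTRL-350. All 3 KO libraries lay above both CTRL libraries, and the KO libraries spread from 89.5 to 174 CPM. The means were 124 ± 43.9 CPM in GMP KO (SD, n = 3) and 40.2 ± 9.32 CPM in GMP CTRL (SD, n = 2), a log2 fold change of 1.61 ± 0.31 (SE). After adjustment over all genes it missed the threshold in edgeR (adjusted p = 0.254), and passed without KO-352 (1.80 ± 0.26, edgeR adjusted p = 0.049) and in DESeq2 (1.60 ± 0.30, adjusted p = 2.7e-05). The order of the 5 GMP libraries was the same for Pim1 and Myc, from KO-178 down to CTRL-350. The antisense gene Gm26885 shares 488 exon bases with Pim1 and had 49 to 70 reads in GMP KO and 18 and 20 in GMP CTRL, against 7671 to 15677 and 2779 to 3840 reads on Pim1; no source used here gives the strand setting of the counting.

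In LSK, the levels of Pim1 lined up with sex. It had 123 CPM in the male KO-1327 and 212 and 223 CPM in the female KO-1333 and KO-1334, against 133 CPM in the male CTRL-1326 and 258 CPM in the female CTRL-1330. Within each sex the KO libraries were below the CTRL library, a comparison with 1 CTRL library per sex. The LSK log2 fold change was −0.07 ± 0.29 (SE; edgeR adjusted p = 0.9998), and −0.18 ± 0.08 with sex as a term (adjusted p = 0.9998). No test between the sexes was made, and the share of sex in these values cannot be told apart from other differences between these libraries.

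Pim2 (ENSMUSG00000031155, chromosome X, 7878262 to 7883432), a paralogue of Pim1 with overlapping substrates, had 12.2, 17.8 and 17.7 CPM in LSK KO, against 16.7 and 13.3 CPM in LSK CTRL. In GMP it had 3.49, 3.63 and 3.61 CPM in KO, against 4.05 and 4.41 CPM in CTRL, all KO below CTRL, at −0.25 ± 0.22 on the log2 scale (SE; edgeR adjusted p = 0.611). In LSK the groups overlapped (0.10 ± 0.18). Pim1 supplied 95.4% to 97.6% of the summed Pim1 and Pim2 levels per kb in GMP KO and 86.4% to 90.6% in GMP CTRL, and 89.3% to 91.3% in LSK KO and 86.9% to 94.2% in LSK CTRL. The third kinase gene of the family, Pim3, is treated with the other network genes.

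In the KO comparisons together, edgeR called 0 of the 10 genes in GMP, where 0.0347% of all 17290 genes tested were called, and 0 in LSK, where 0.0232% of 17238 were called. At an unadjusted p under 0.05 there were 2 in GMP, Myc and Pim1 (13.8% of all genes), and 1 in LSK, Mycl (2.83%). DESeq2 called 2 in GMP, Myc and Pim1, where it called 4.32% of all genes, and 0 in LSK, where it called 0.0802%. limma-voom called 0 in either. In GMP, 3 of the 10 had all KO libraries above all CTRL libraries (Myc, Mxi1 and Pim1), against 17.7% of genes, and 2 had all below (Mxd4 and Pim2), against 14.6%. In LSK, 1 was above (Mycn; 6.34% of genes) and 1 below (Mxi1; 7.67%).

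The KO effects on Pim1 and Myc were smaller in LSK than in GMP by point estimate. The difference of effects, LSK minus GMP, was −1.70 ± 0.50 (log2, SE) for Pim1 (edgeR adjusted p = 0.353) and −0.53 ± 0.18 for Myc (adjusted p = 0.425). Neither passed, and edgeR called 0 of the 10 genes for this difference, against 0.0265% of 18836 genes. In simulated counts this test recovered 26% of differences of 1 log2 unit and 48% of those of 2. At an unadjusted p under 0.05 there were 2 of 10, against 10.1% of all genes, and DESeq2 (1.3% of all genes) and limma-voom called 0. For the other 8 genes the difference ran from −0.66 ± 1.36 for Mycl to 0.52 ± 0.79 for Mycn.

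**Figure D2:**
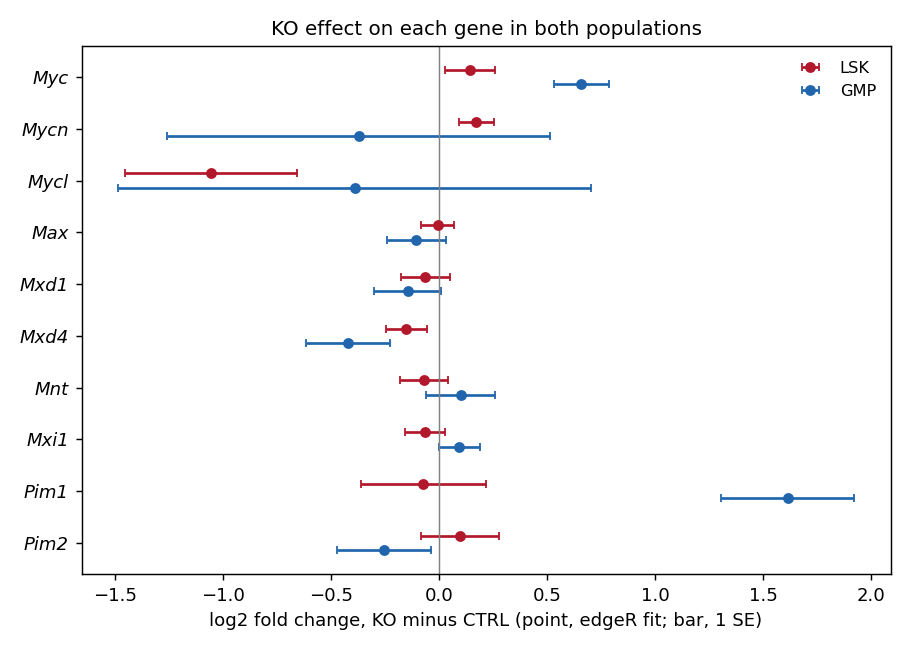
KO minus CTRL log2 fold change of each gene in LSK (red) and GMP (blue) with bars of 1 SE from edgeR; 0 marks no difference. Pim1 at 1.61 and Myc at 0.66 in GMP lie farthest to the right, while in LSK the same genes lie at −0.07 and 0.14. Mycn and Mycl have wide bars in GMP, where their counts are low.

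Sums of marker genes also differed between the GMP libraries. The 10 LSK markers, none at 0, summed to 471, 533 and 384 CPM in GMP KO-178, KO-179, KO-352, against 302 and 309 CPM in CTRL-346 and CTRL-350, all KO above CTRL. Kit, which both gates select, and Flt3 carried most of it, and without both the sums were 75.3, 86.0 and 57.8 CPM in GMP KO, against 52.4 and 56.0 CPM in GMP CTRL, with KO-352 close to CTRL-350. In LSK itself the sum of all 10 was 1818 to 2132 CPM in KO and 1837 to 2270 CPM in CTRL. The 11 monocyte and macrophage markers, of which 1 was at 0 in KO-352, summed to 566 to 669 CPM in GMP KO, against 398 and 525 CPM in GMP CTRL. The 10 mast cell, basophil and eosinophil markers summed to 1057 to 1362 CPM in GMP KO, against 1729 and 4690 CPM in GMP CTRL. All 10 had negative KO effects in GMP, with a median log2 fold change of −1.33. edgeR called 1 of them lower (adjusted p = 0.041), where 0.0347% of all genes were called. At an unadjusted p under 0.05 there were 9 of 10, against 13.8% of all genes. The sums of the 15 mature neutrophil markers overlapped, with 1045 to 5467 CPM in GMP KO and 1446 and 3038 CPM in GMP CTRL. Taken singly, 13 of these markers had positive and 2 negative KO effects in GMP. Their median log2 fold change was 0.99, and edgeR called 0. The 9 T and NK cell markers, of which 1 to 4 were at 0 in every GMP library but KO-179, summed to 353, 289 and 366 CPM in GMP KO, against 510.3 and 425 CPM in GMP CTRL, all KO below CTRL. Nkg7 carried most of this sum, with 341, 275 and 362 CPM in GMP KO, against 508 and 421 CPM in GMP CTRL. Of the 8 T and NK cell markers tested in GMP, 6 had positive and 2 negative KO effects. Their median log2 fold change was 0.62, and edgeR called 0. The part of these cells in the Myc and Pim1 values was not tested. With KO-352 alone against both CTRL libraries, thus without the KO libraries highest in reads outside genes, the log2 fold changes were 1.15 ± 0.22 for Pim1 and 0.56 ± 0.17 for Myc, taking the lone KO library to vary like the CTRL libraries (edgeR adjusted p = 0.574 and 0.99994).

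Between the populations several members stood far apart. LSK was higher than GMP in Mycn, by 6.81 ± 0.57 on the log2 scale in KO and 6.29 ± 0.68 in CTRL (SE; edgeR adjusted p = 3.6e-06 and 3.5e-05). Without CTRL-350 the CTRL value was 8.30, since GMP is near 0. Pim2 was higher in LSK by 2.15 ± 0.18 in KO and 1.82 ± 0.22 in CTRL, Mnt by 1.24 ± 0.11 and 1.43 ± 0.13, and Mxd1 by 0.50 ± 0.11 and 0.44 ± 0.14 (edgeR adjusted p at most 0.020). The Mxd1 call in CTRL was lost without CTRL-346 (adjusted p = 0.130), CTRL-1326 (0.103) or CTRL-1330 (0.054). Mxi1 was lower in LSK by −0.81 ± 0.07 in KO and −0.63 ± 0.09 in CTRL (adjusted p = 5.6e-06 and 1.9e-04).

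For Myc and Pim1, LSK minus GMP passed in CTRL and not in KO. In CTRL mice LSK exceeded GMP by 2.28 ± 0.40 for Pim1 (log2, SE; edgeR adjusted p = 8.4e-04) and 0.55 ± 0.14 for Myc (adjusted p = 0.0082). In KO mice the same contrast was 0.58 ± 0.32 for Pim1 (adjusted p = 0.133; 0.041 without GMP KO-178) and 0.01 ± 0.12 for Myc (adjusted p = 0.929). With sex as a term the KO values turned to −0.053 for Pim1 (adjusted p = 0.888) and −0.13 for Myc (adjusted p = 0.438), where all GMP libraries are male and 3 of 5 LSK libraries female. The change in these contrasts is the difference of KO effects given above, which did not pass. Mxd4 was higher in LSK by 0.63 ± 0.15 in KO (adjusted p = 0.0042) and by 0.38 ± 0.18 in CTRL (adjusted p = 0.099).

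Max was lower in LSK by −0.33 ± 0.10 in KO and −0.41 ± 0.13 in CTRL (edgeR adjusted p = 0.017 and 0.019), but on plain library totals it was level, with 73.3 CPM in LSK KO against 71.0 in GMP KO and 72.7 CPM in LSK CTRL against 72.6 in GMP CTRL. Plain totals in place of TMM raise LSK against GMP by 0.38 in KO and 0.41 in CTRL for every gene (log2). On them the other 9 members kept their direction, and Mxi1 was still lower in LSK, by −0.43 in KO and −0.22 in CTRL. The Max call was also lost in KO without GMP KO-352 (adjusted p = 0.086) or LSK KO-1327 (0.0505), and in CTRL without GMP CTRL-346 (0.151) or LSK CTRL-1330 (0.117). With sex as a term it was −0.30 in KO (adjusted p = 0.099) and −0.38 in CTRL (adjusted p = 0.051), both short of the threshold. In all, 7 of 10 members were called in KO (5 higher and 2 lower in LSK), where 60.9% of all genes were called, 30.7% higher and 30.1% lower, and 8 of 10 in CTRL (6 higher and 2 lower), where 55.4% were called, 28.2% higher and 27.3% lower. The medians over all genes were 0.08 in KO and 0.12 in CTRL.

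Per kb of merged exons, Myc led in all 4 groups, with 81.5 ± 12.5 in LSK KO, 74.2 ± 2.83 in LSK CTRL, 80.8 ± 8.01 in GMP KO and 50.8 ± 3.62 CPM per kb in GMP CTRL (SD). Pim1 came next in LSK KO at 55.3 ± 16.3, in LSK CTRL at 58.2 ± 26.4 and in GMP KO at 37.0 CPM per kb. In GMP CTRL, Pim1 was at 12.0 ± 2.77 CPM per kb, below Max at 23.8 ± 2.21 and beside Mxd4 at 11.7 ± 0.52, from which it did not differ beyond its spread. Mycn was at 18.9 ± 0.65 in LSK KO and 16.9 ± 0.50 CPM per kb in LSK CTRL, close to Max at 17.8 ± 0.10 and 17.9 ± 1.23. With the longest transcript as length, Max in LSK KO was at 32.9 CPM per kb and Mxd4 also exceeded Mycn, which was at 23.3. Mnt, Mxi1, Pim2 and Mxd1 lay between 3.73 and 6.72 CPM per kb in LSK. In GMP, Mxi1 stood at 9.40 ± 0.27 in KO and 8.74 ± 0.10 CPM per kb in CTRL, above Mnt at 2.68 ± 0.18 and 2.48 ± 0.06 CPM per kb. Among the 4 antagonists, Mxd4 took 44.6% to 49.3% of the summed level per kb in LSK KO and 47.6% to 49.1% in LSK CTRL, and 31.4% to 43.0% in GMP KO and 43.8% to 46.8% in GMP CTRL. The summed antagonists were 27.8 to 30.7 CPM per kb in LSK KO, 30.3 to 32.8 in LSK CTRL, 21.3 to 24.9 in GMP KO and 25.8 in both GMP CTRL libraries.

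**Figure D3:**
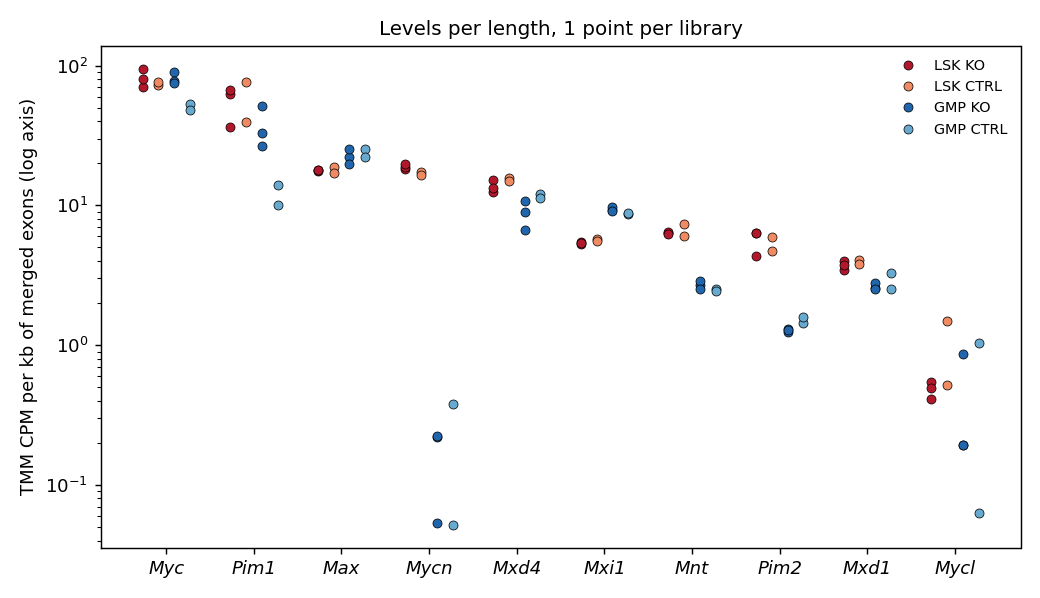
Level per length of the 10 genes in TMM CPM per kb of merged exons (log axis), 1 point per library, for LSK KO, LSK CTRL, GMP KO and GMP CTRL from left to right. Myc is at the top in every group, and Mycn spans from 18.9 CPM per kb on average in LSK KO to 0.17 in GMP KO. Mycl is at or near the bottom in all groups.

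Ranked by mean TMM CPM over the 4 groups, Myc ran LSK KO, GMP KO, LSK CTRL and GMP CTRL. Only the last step was free of overlap between neighbours. Pim1 ran LSK CTRL, LSK KO, GMP KO and GMP CTRL, and again only the step to GMP CTRL was free of overlap. For Mxi1, in the order GMP KO, GMP CTRL, LSK CTRL and LSK KO, no neighbours overlapped. Mycl overlapped at every step. These orders depend on the scaling. On plain library totals Myc ran LSK KO (254 CPM), LSK CTRL (228 CPM), GMP KO (194 CPM) and GMP CTRL (117 CPM). For Mxi1, LSK KO and LSK CTRL then overlapped, with 42.86 CPM in KO-1334 and 42.83 CPM in CTRL-1326.

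Of the genes that Myc is known to activate, none passed in GMP. The list of 45 genes of ribosome biogenesis, metabolism and growth had 20 positive and 25 negative KO effects in GMP, with a median log2 fold change of −0.02 beside 0.01 over all genes. edgeR called 0 of 45, with 2 at an unadjusted p under 0.05, against 13.8% of all genes. DESeq2 called 1 of 45, against 4.32% of all genes, and limma-voom 0. Gnl3, which encodes the nucleolar GTPase nucleostemin, had the smallest p among the positive ones, with 312, 303 and 276 CPM in GMP KO, against 218 and 201 CPM in GMP CTRL (0.49 ± 0.11, SE; adjusted p = 0.264). Tfrc, the transferrin receptor gene, had the smallest p among the negative ones, with 397, 492 and 591 CPM in GMP KO, against 807 and 580 CPM in GMP CTRL (−0.51 ± 0.21, adjusted p = 0.36). The direction of the list in GMP rests on the CTRL libraries: it was 34 positive and 11 negative without CTRL-346 (median 0.19) and 11 positive and 34 negative without CTRL-350 (median −0.21).

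In LSK the same list had 43 positive and 2 negative KO effects, all small, with a median of 0.09 beside 0.003 over all genes. edgeR called 0 of 45, with 0 at an unadjusted p under 0.05, against 2.83% of all genes. DESeq2 (0.0802% of all genes) and limma-voom called 0. Tfrc led with 177 to 199 CPM in LSK KO, against 147.9 and 177.6 CPM in LSK CTRL (0.20 ± 0.10, SE), and Ccnd2, a cyclin gene, was 1 of the 2 negative ones (−0.09 ± 0.11). Without KO-1333, which also had the highest Myc in LSK, the list had 29 positive and 16 negative effects and a median of 0.02. For the difference of KO effects, LSK minus GMP, 29 were positive and 16 negative (median 0.09). For it 0 were called by edgeR, DESeq2 or limma-voom, with 2 at an unadjusted p under 0.05 in edgeR, against 10.1% of all genes.

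Between populations most of the list was called lower in LSK, while Myc was called higher in LSK in CTRL. In KO 32 of 45 were called lower and 0 higher (30.1% of all genes were called lower), and in CTRL 32 of 45 were called lower and 0 higher (27.3% of all genes), each with a median log2 fold change of −0.66. On plain library totals the medians were −0.28 in KO and −0.24 in CTRL, with 32 and 33 of 45 negative. Nme1, a nucleoside diphosphate kinase gene, had 23.7, 34.0 and 29.8 CPM in LSK KO, against 131, 113 and 137 CPM in GMP KO (−2.12 ± 0.15, SE; edgeR adjusted p = 1.1e-06). In CTRL mice Nme1 had 30.3 and 27.7 CPM in LSK, against 157 and 125 CPM in GMP (−2.29 ± 0.18, adjusted p = 5.0e-06). Next by p, the helicase gene Eif4a1 of translation initiation was lower by −1.12 ± 0.09 in KO and −1.27 ± 0.11 in CTRL, and Hk2, a hexokinase gene of glycolysis, by −1.01 ± 0.09 and −1.31 ± 0.11. Gnl3 was also called lower in KO, and Tfrc in CTRL by −2.09 ± 0.20.

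**Figure D4:**
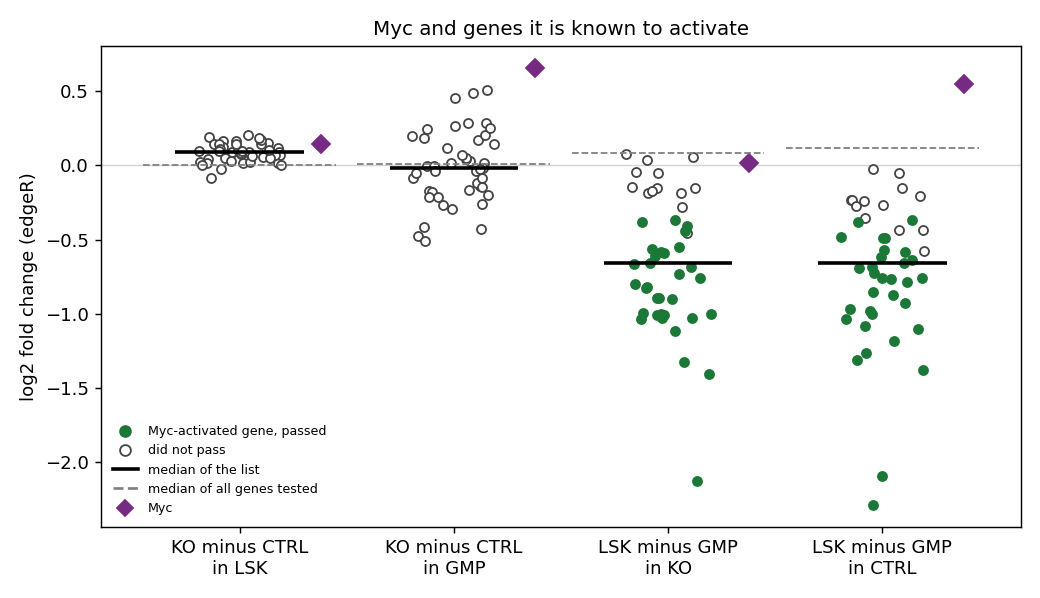
Log2 fold changes (edgeR) of the 45 genes known to be activated by Myc, of Myc itself (diamond), the list median (thick line) and the median of all genes tested (dashed) in 4 comparisons. Filled points passed the adjusted test. In GMP the list lies around −0.02, with a sign that turned under other settings, while Myc lies at 0.66. In both LSK minus GMP comparisons the list median lies at −0.66 while Myc lies at 0.01 in KO and 0.55 in CTRL. On plain library totals the list medians would be −0.28 in KO and −0.24 in CTRL.

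The other network genes were Mxd3, Mga, Mlx, Mlxip, Mlxipl, Pim3 and Zbtb17, of which edgeR called 0 in either KO comparison. At an unadjusted p under 0.05 there were 2 of 7 in GMP, Mxd3 and Zbtb17, against 13.8% of all genes. In LSK there were 0 of 6 tested, against 2.83%. Mxd3, an Mxd family member of dividing cells, had 3.83, 3.46 and 4.06 CPM in GMP KO, against 5.74 and 8.30 CPM in GMP CTRL, all KO below CTRL (−0.90 ± 0.24, SE; edgeR adjusted p = 0.281). Mlxipl, a glucose-sensing partner of Mlx, had 0.27 to 0.58 CPM in GMP KO, against 0.13 and 0.17 CPM in GMP CTRL (1.32 ± 0.58, adjusted p = 0.371). In LSK the smallest p were those of Mxd3 (0.11 ± 0.16) and Mlxip (−0.08 ± 0.14). Mlx, the Max-like partner of Mxd1, Mxd4 and Mnt, was lower in LSK, with 25.1, 28.5 and 25.6 CPM in LSK KO, against 85.0, 77.6 and 93.2 CPM in GMP KO (−1.69 ± 0.10, adjusted p = 3.2e-07). In CTRL mice Mlx had 26.5 and 26.2 CPM in LSK, against 101 and 92.2 CPM in GMP (−1.88 ± 0.12, adjusted p = 1.3e-06). Higher in LSK in KO were Mxd3 (1.26 ± 0.19), Zbtb17 (0.73 ± 0.13), which encodes the Myc partner Miz1, and Pim3 (0.47 ± 0.11), while in CTRL none was called higher and Zbtb17 had 0.23 ± 0.16 (adjusted p = 0.225).

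Upstream of Pim1, 12 JAK-STAT and cytokine receptor genes held 0 called by edgeR in either KO comparison. At an unadjusted p under 0.05 there were 2 in GMP and 0 in LSK, against 13.8% and 2.83% of all genes. In GMP, Csf2rb, the common beta chain of the GM-CSF and IL-3 receptors, had 289, 247 and 226 CPM in KO, against 182 and 204 CPM in CTRL (0.39 ± 0.13, SE; edgeR adjusted p = 0.328). The IL-3 receptor alpha gene Il3ra had 6.20, 4.51 and 8.97 CPM in GMP KO, against 12.2 and 13.2 CPM in GMP CTRL (−0.97 ± 0.29, adjusted p = 0.306). Both genes kept KO and CTRL libraries apart, where 17.7% of all genes had all KO libraries above all CTRL libraries and 14.6% all below. Of 12 STAT-induced genes edgeR also called 0 in either. At an unadjusted p under 0.05 there were 2 in GMP and 1 in LSK, against the same 13.8% and 2.83% of all genes. Among them Socs3, the feedback inhibitor of JAK signalling, had 6.79, 3.57 and 2.05 CPM in GMP KO, against 0.72 and 1.51 CPM in GMP CTRL (1.88 ± 0.58, edgeR adjusted p = 0.311). Socs3 kept the order of Pim1 among the KO libraries but not between the CTRL libraries. The cyclin gene Ccnd3 had 68.9, 52.7 and 65.9 CPM in GMP KO, against 93.5 and 86.0 CPM in GMP CTRL (−0.54 ± 0.14, adjusted p = 0.278). In LSK, Socs3 had 8.91, 24.8 and 22.4 CPM in KO, against 11.1 and 12.0 CPM in CTRL (0.70 ± 0.35), with the male KO-1327 lowest. Of the 12 STAT-induced genes, 7 had positive and 5 negative KO effects in LSK. Bcl6 was lower there, with 9.40, 8.14 and 9.30 CPM in KO, against 11.4 and 11.7 CPM in CTRL. All its KO libraries lay below CTRL, as in 7.67% of all genes.

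Between populations 7 STAT-induced genes were called higher and 2 lower in LSK in KO, and 5 higher and 1 lower in CTRL, of 12. Over all genes 30.7% were called higher and 30.1% lower in KO, and 28.2% and 27.3% in CTRL. Cish, a cytokine-induced SH2 gene of the Socs family, had 7.23, 8.87 and 9.64 CPM in LSK KO, against 0.46, 0.32 and 0.33 CPM in GMP KO (4.53 ± 0.26, SE; edgeR adjusted p = 3.2e-07), and 3.63 ± 0.31 in CTRL. Socs2 was higher by 3.66 ± 0.50 in KO and 5.15 ± 0.68 in CTRL, and Id1 lower, at −2.81 ± 0.50 and −2.84 ± 0.62. Of the receptor and STAT genes 6 were called higher and 3 lower in KO and 5 higher and 4 lower in CTRL, thus 9 of 12 in each, against 60.9% of all genes in KO and 55.4% in CTRL. Stat5a was higher by 1.06 ± 0.10 in KO and 0.79 ± 0.13 in CTRL, Stat5b by 0.98 ± 0.09 and 0.85 ± 0.11, and Csf2rb lower by −1.76 ± 0.12 and −1.52 ± 0.14.

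Of the 15 known Pim substrates edgeR called 0 in either KO comparison. At an unadjusted p under 0.05 there were 1 in GMP and 0 in LSK, against 13.8% and 2.83% of all genes. The smallest p in GMP were those of Foxo3 (−0.34 ± 0.13) and Nfatc1 (0.39 ± 0.18), both transcription factors. Between populations 6 were called higher and 6 lower in LSK in KO (60.9% of all genes called), and 5 higher and 6 lower in CTRL (55.4%). Among them in KO were Foxo3 (1.71 ± 0.10) and the chemokine receptor gene Cxcr4 (−1.03 ± 0.09). Of 20 Myc cofactor and turnover genes 0 were called in either KO comparison (2 in GMP and 0 in LSK at an unadjusted p under 0.05, against the same shares of all genes). In GMP, the mitotic kinase gene Aurka had −0.28 ± 0.11. Fbxo32 was higher in LSK (2.16 ± 0.34 in KO and 3.08 ± 0.44 in CTRL), and the histone methylation adaptor gene Wdr5 lower (−0.84 ± 0.09 and −0.90 ± 0.11). Of 9 Myc-repressed genes tested 0 were called in either KO comparison (4 in GMP and 0 in LSK at an unadjusted p under 0.05, against 13.8% and 2.83% of all genes). In GMP, Ndrg2 had 0.86 ± 0.25 (edgeR adjusted p = 0.301) and the myeloid factor gene Cebpa −0.30 ± 0.10 (adjusted p = 0.326).

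The genes most like Myc over the 10 libraries, each gene centred on its population mean, were found among 9218 genes. Pearson's r was 0.976 for Adam9, 0.975 for Rbm34, 0.963 for Papola, 0.962 for Ppp1r15b and 0.954 for Pak1ip1. Adam9 encodes a membrane metalloprotease and Papola a poly(A) polymerase. Adam9 had 55.1 ± 3.68 CPM in GMP KO, against 38.6 ± 4.51 CPM in GMP CTRL, and 30.5 ± 3.35 CPM in LSK KO, against 27.6 ± 0.55 CPM in LSK CTRL (SD). For Pim1, r was 0.975 for Zfp131, 0.968 for Spire1, 0.962 for Selp and 0.952 for Eif2b3, all among the highest. Selp, which encodes P-selectin, had 10.3 ± 5.06 CPM in GMP KO, against 1.35 ± 0.36 CPM in GMP CTRL, and 36.6 ± 16.6 CPM in LSK KO, against 30.3 ± 15.8 CPM in LSK CTRL (SD). The 10 libraries share genotype groups and depth within a population, so these r describe a likeness over few libraries.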

How the data were processed

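Raw read counts per gene were deposited by the authors for 10 libraries, as 1 table for GMP (38924 gene IDs) and 1 for LSK (45513), and were used as deposited. The submitters' processing notes name STAR, HTSeq 0.5.3p3, DESeq 1.18.0, DESeq2 1.4.5 and mm10. The authors' deposited normalized signal served only to recover their size factors. Per the labels' protocols, total RNA was sequenced after ribosomal RNA depletion. Rows that name no gene were left out: 8.5% to 16.1% of reads in GMP lay outside genes. Nothing besides the title numbers shows separate animals, so p-values measure the spread between libraries.

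KO and CTRL were compared in each population with edgeR 4.0.16 (R 4.3.3; quasi-likelihood test, filterByExpr with a minimum count of 10, TMM, Benjamini-Hochberg adjustment over all genes tested, threshold 0.05). LSK and GMP were compared in 1 fit of all 10 libraries on shared IDs. SE is the log2 fold change over the root of F. DESeq2 1.42.0 and limma 3.58.1 (voom) were alternatives. In simulated counts of the GMP comparison (16781 genes), 47% of genes changed by 1 log2 unit were recovered, and 67% of those changed by 2. In the same counts 13 unchanged genes were called. The shares recovered were 63% and 83% for the LSK comparison, and 26% and 48% for the difference of KO effects. In the real GMP libraries Dnmt3a itself did not pass. The members and lists were chosen with earlier results of these data known. All members are named. From each list, up to 4 called genes per direction by p are named, or else the gene with the smallest p in each direction. Not every gene this rule or the ranking by likeness picks is reported here, and the Zbtb17 value in CTRL was added after it was seen. Sums of markers without Kit and Flt3 were added after the data were seen.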

Additional observations from a re-analysis of the deposited data

Results flagged for a closer look

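Of the marker genes, 1 had a KO effect that differed between the populations. Hdc, which encodes histidine decarboxylase and belongs to the mast cell, basophil and eosinophil markers, had a KO effect in LSK minus that in GMP of 0.98 (log2; edgeR adjusted p = 0.0145). It had 20.1 ± 0.72 CPM in LSK KO, against 20.9 ± 0.36 CPM in LSK CTRL, and 227 ± 2.87 CPM in GMP KO, against 467 ± 7.28 CPM in GMP CTRL (SD).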

How the results depend on the processing

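No paired analysis was possible because KO and CTRL libraries share no replicate numbers. Of the 10 members, 0 were called in GMP by the main test and 2 by DESeq2. Without the filter on low counts 1 was called (Pim1), and 1 in the fit of all 10 libraries (Myc). With a library left out 0 to 1 were called in GMP (Pim1 without KO-352). DESeq2 called 1 Myc-activated gene there. Over all genes, GMP calls were 6 by the main test, 50 without a filter, 718 by DESeq2, 0 by limma-voom, 182 in the fit of all libraries, 203 with reads outside genes as a term and 172 without KO-352. LSK calls were 4, with 27 without a filter, 21 by DESeq2 and 0 in the fit of all libraries. Calls for the difference of effects were 5, with 38 without a filter, 218 by DESeq2, 2 by limma-voom and 513 without KO-352.

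Signs turned for Mycl in GMP by limma-voom (0.33), for Max in GMP with reads outside genes as a term (0.010) and without KO-178 and KO-179 (0.077), and for Max in LSK with sex as a term (0.0017). In LSK minus GMP in KO they turned for Myc without a filter (−0.0079) and with sex as a term (−0.13), and with sex as a term for Mycl (−0.35) and Pim1 (−0.053). None of these was called, and the cause was not tested. With 1 library left out, signs turned within −1.18 to 1.63 for Mycn, −1.52 to 2.68 for Mycl, −0.23 to 0.011 for Max and −0.30 to 0.016 for Mxd1 in GMP. In LSK they turned within −0.055 to 0.042 for Max, −0.19 to 0.055 for Mnt, −0.49 to 0.51 for Pim1 and −0.043 to 0.25 for Pim2. For the difference of effects the ranges were −1.48 to 1.31 for Mycn, −3.74 to 0.44 for Mycl, −0.038 to 0.21 for Max and −0.091 to 0.22 for Mxd1. For LSK minus GMP they were −0.11 to 0.11 for Myc and −0.13 to 1.34 for Mycl in KO, and −0.089 to 3.96 for Mycl in CTRL, which was called without CTRL-350 (adjusted p = 0.0164). Mxd4 in CTRL was called without KO-178 (adjusted p = 0.0334) or KO-352 (0.0474). Members called numbered 6 to 8 in KO and 6 to 9 in CTRL. With 2 or 3 libraries a group, and 14 to 103 Mycn reads in GMP, small effects were not detectable.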
